A study of Homo sapiens with 12 samples.

Results

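Metallothionein transcripts, the zinc exporter SLC30A1 and the metal sensor MTF1 were described in 12 arrays of HMT-3522 S1, a human mammary epithelial cell line of non-neoplastic origin. The members are all probe sets whose platform annotation gives exactly 1 gene symbol out of MT1E, MT1F, MT1G, MT1H, MT1M, MT1X, MT2A, SLC30A1 and MTF1. This gave 14 probe sets for 9 genes, out of 22215 probe sets that are not controls and 11963 genes. The genes were selected on the AGA arrays: metallothionein probe sets had passed in a fit of AGA against vehicle made earlier on these data. All values of AGA against vehicle are therefore given as a description. The counts of limma calls printed for that contrast are of the kind the choice was made on, and they are no test of the members.

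The cells were grown for 10 days in H14 medium with 5% Matrigel, which lets them form acini. EGF was present for the first 8 days and left out for the last 48 hours. Hydrocortisone was part of the medium in every group, at 1.4 µM. The 4 vehicle arrays are labelled polarized. The 4 AGA arrays came from cultures given 10 µM 18-alpha-glycyrrhetinic acid, which blocks gap junctions, and the 4 Aza arrays from cultures given 10 µM 5-aza-2'-deoxycytidine, which inhibits DNA methyltransferases; both are labelled not polarized, and the drugs were renewed every 2 days from plating. The series calls the 4 replicates of a group biological but says nothing of how the cultures were separated, so p-values measure the spread between these samples of 1 cell line. Because RNA came from whole cultures, a changed share of cells that make a transcript and a changed amount of RNA per cell cannot be told apart.

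Metallothioneins are small cysteine-rich proteins that bind zinc and copper and buffer them in the cytosol. When free zinc rises, the zinc finger protein MTF1 binds short metal response elements in front of the metallothionein genes and of SLC30A1, and both kinds of product lower free zinc, by binding it or by moving it out of the cell. Glucocorticoids also raise transcription of several metallothionein genes, and the proteins scavenge oxidants. In the gene table of GRCh38.p14 the metallothionein genes lie side by side on chromosome 16 in a cluster of 16, of which 11 are protein coding and 5 are pseudogenes. The 7 metallothionein members stand there in the order MT2A, MT1E, MT1M, MT1F, MT1G, MT1H and MT1X, whereas SLC30A1 and MTF1 lie on chromosome 1.

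Promoter sequences show what these genes share in front of their starts. RefSeq promoters (GRCh38.p14) were matched for 5 of the 9 genes: MT1H, MT1X, MT2A, SLC30A1 and MTF1. The 250 bases before the start are printed 5′ to 3′ on the gene's strand for 4 of them, with matches to the core of the metal response element in capitals. MT2A lies on the plus strand at chr16:56608334-56608583, MT1H on the plus strand at chr16:56669564-56669813, MT1X on the plus strand at chr16:56682220-56682469 and SLC30A1 on the minus strand at chr1:211579162-211579411.
MT2A: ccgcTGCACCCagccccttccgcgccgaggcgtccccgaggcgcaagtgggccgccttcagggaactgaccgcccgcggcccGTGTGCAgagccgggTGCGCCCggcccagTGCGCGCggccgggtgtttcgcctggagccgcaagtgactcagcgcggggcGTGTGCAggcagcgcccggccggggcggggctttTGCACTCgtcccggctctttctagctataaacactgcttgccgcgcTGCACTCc
MT1H: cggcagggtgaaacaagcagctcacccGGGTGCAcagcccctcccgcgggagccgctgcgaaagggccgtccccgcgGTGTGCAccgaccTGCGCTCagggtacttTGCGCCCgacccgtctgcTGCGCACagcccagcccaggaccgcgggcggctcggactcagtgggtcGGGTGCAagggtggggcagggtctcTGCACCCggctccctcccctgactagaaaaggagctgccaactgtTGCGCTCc
MT1X: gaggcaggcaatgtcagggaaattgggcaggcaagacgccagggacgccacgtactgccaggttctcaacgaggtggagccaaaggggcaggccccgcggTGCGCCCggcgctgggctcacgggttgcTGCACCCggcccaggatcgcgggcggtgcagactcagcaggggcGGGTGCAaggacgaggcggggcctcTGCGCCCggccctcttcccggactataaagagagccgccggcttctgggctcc
SLC30A1: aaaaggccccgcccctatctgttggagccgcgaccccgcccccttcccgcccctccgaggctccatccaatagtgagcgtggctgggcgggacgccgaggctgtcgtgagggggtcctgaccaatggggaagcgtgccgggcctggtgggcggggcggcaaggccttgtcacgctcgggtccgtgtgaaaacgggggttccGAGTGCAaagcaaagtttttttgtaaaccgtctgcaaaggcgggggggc

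The core was searched as TGCACNC or TGCGCNC on both strands, and matches were allowed to overlap each other or another motif. MT1H held 8 matches, MT2A 7, MT1X 4 and SLC30A1 1, and MTF1 held 0. Of 35116 promoters of the same length, 24.8% held at least 1 match, 0.37% at least 4, 0.0313% at least 7 and 0.0171% at least 8. The 3 metallothionein promoters thus held more copies than most promoters, and at least 1 match, as in SLC30A1, was common. A match about 50 bases before the start was present in all 4 promoters printed, though not in MTF1. It lay on the gene's strand in the metallothioneins (first base 53 or 54 before the start) and on the other strand in SLC30A1 (49). The share of all promoters with a match at that place was not counted. The TATA box letters TATAAA, held by 10.7% of promoters, were found 29 bases before the start in MT2A and 30 before it in MT1X. The AP-1 letters TGACTCA, held by 4.2% of promoters, were found once, in MT2A, 104 bases before the start. These are matches of letters and were not measured as binding sites.

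**Figure D1:**
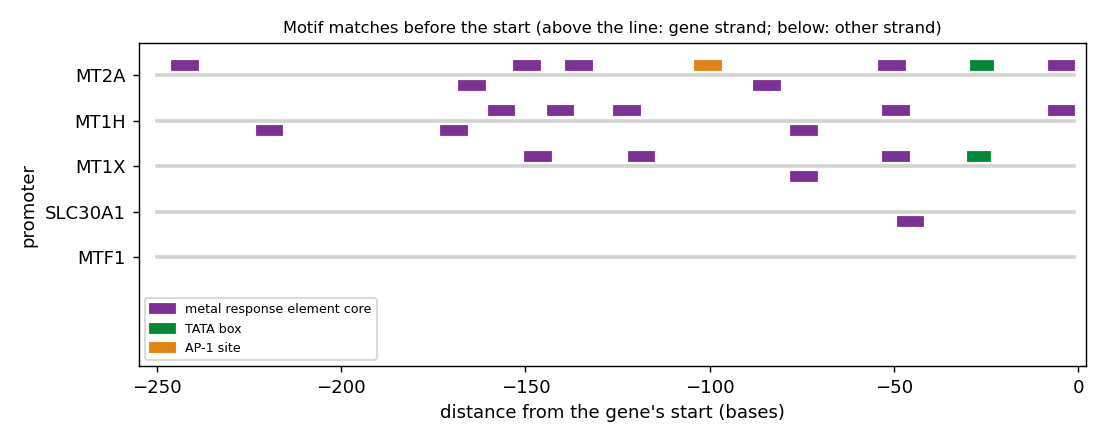
Positions of motif matches in the 250 bases before the start of MT2A, MT1H, MT1X, SLC30A1 and MTF1; the horizontal axis is distance from the start in bases, boxes above a line are on the gene's strand and boxes below it on the other strand. The metal response element core recurs 7 times in MT2A, 8 in MT1H and 4 in MT1X, once in SLC30A1 and not in MTF1.

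The suffix of an Affymetrix probe set tells how specific its probes are. Probe sets ending in _x_at hold probes that can also bind transcripts of related genes, so within a family as alike as the metallothioneins they need not be separate measurements. Of the 14, 9 are of this kind, all metallothioneins (MT1E, MT1F and MT1X with 2 each, and MT1G, MT1H and MT2A with 1 each). One of the MT1X probe sets, 204326_x_at, has as its source sequence a transcript that the gene table assigns to MT1L, a transcribed pseudogene of the same cluster. Another 2 metallothionein probe sets, for MT1G and MT1M, and the single one for SLC30A1 have the plain _at suffix, meant to be specific. The 2 MTF1 probe sets end in _s_at, whose probes can bind several transcripts.

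Each level is a log2 intensity on quantile-normalized arrays, with a floor of 0. Over all arrays the deposited medians ran from 23.3 to 35.9. The lowest were AGA replicates 1 and 3 at 23.3 and 23.7, Aza replicate 4 at 25.5 and AGA replicate 4 at 25.6. AGA replicate 2 was at 30.2. The replicate 4 arrays of all groups stood apart on the first principal component (38.7 to 46.3 against -7.32 or lower for the other 9); without them the median AGA difference of the 9 _x_at probe sets was 0.52.

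All 9 _x_at metallothionein probe sets were bright, at mean levels of 9.31 to 12.44 against a median of 4.76 over all probe sets. Each was higher in AGA than in vehicle, by 0.28 to 1.03 with a median of 0.51, or 1.42-fold, while the median over all probe sets was 0.00. In Aza the same probe sets stood between -0.08 and 0.11 from vehicle. The plain probe sets for MT1G and MT1M were near the floor and showed no common direction, and SLC30A1 was higher in AGA by 0.41.

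**Figure D2:**
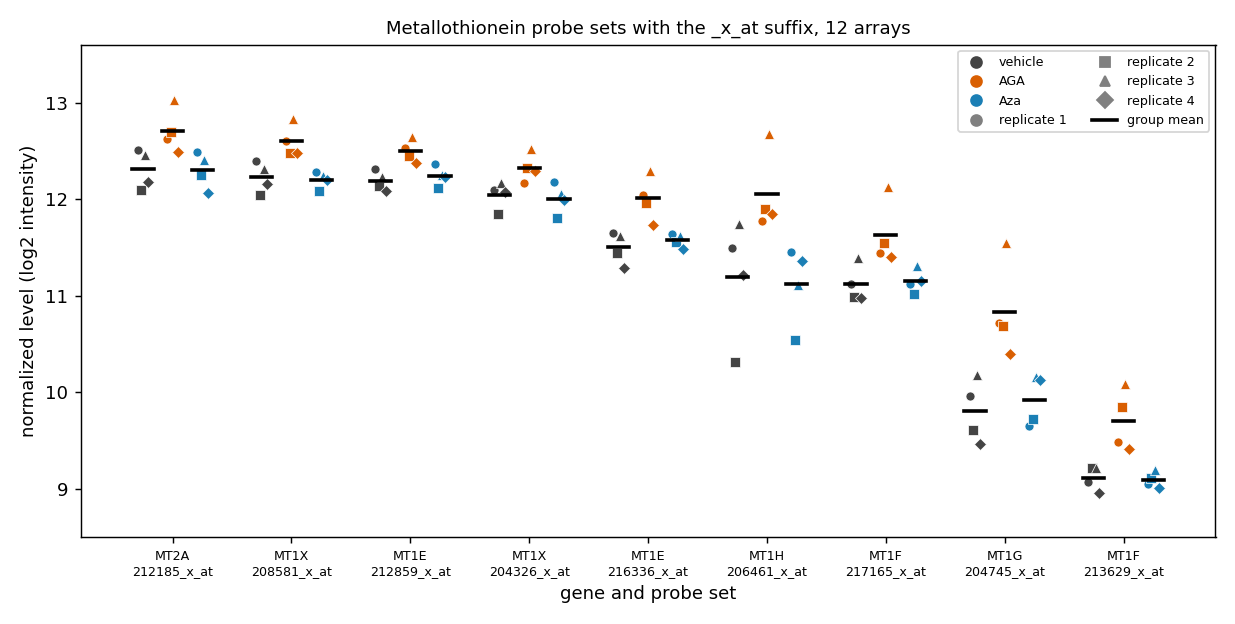
Normalized level (log2 intensity) of the 9 _x_at metallothionein probe sets on each array, by group (colour) and replicate number (marker), with group means as black bars. The AGA means lie above both other means for every probe set, and AGA replicate 3 is the highest array throughout, up to 13.03 for MT2A.

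MT2A, the main metallothionein of many cell types, was read by 212185_x_at at 12.51, 12.09, 12.46 and 12.18 in vehicle replicates 1 to 4 and at 12.62, 12.69, 13.03 and 12.49 in AGA. The lowest AGA array (replicate 4) lay just under the highest vehicle array (replicate 1), so the groups overlapped. Group means were 12.31 ± 0.21 and 12.71 ± 0.23 (SD, n = 4), a difference of 0.40 ± 0.17 (SE), with same-number pairs from 0.11 to 0.60.

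MT1E, one of the metal-inducible type 1 metallothioneins, has a pair of probe sets. By 212859_x_at the vehicle arrays stood at 12.31, 12.13, 12.23 and 12.08 and the AGA arrays at 12.53, 12.45, 12.64 and 12.38, a difference of 0.31 ± 0.13 (SE, n = 4). By 216336_x_at they stood at 11.65, 11.45, 11.62 and 11.28 and at 12.04, 11.96, 12.29 and 11.73, a difference of 0.51 ± 0.16. Every AGA value exceeded every vehicle value in both.

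MT1F, another type 1 gene, was at 9.07, 9.21, 9.22 and 8.96 in vehicle and at 9.48, 9.85, 10.08 and 9.41 in AGA by 213629_x_at, a difference of 0.59 ± 0.17 (SE, n = 4). By 217165_x_at it was at 11.13, 10.99, 11.39 and 10.98 and at 11.44, 11.54, 12.12 and 11.40, a difference of 0.51 ± 0.19. Again the groups did not overlap, although by the second probe set vehicle replicate 3 came close to AGA replicate 4.

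MT1G had the largest difference of the 9, by 204745_x_at. Its vehicle arrays stood at 9.97, 9.61, 10.18 and 9.47 and its AGA arrays at 10.72, 10.68, 11.54 and 10.39. The groups did not overlap, and the means of 9.81 ± 0.33 and 10.84 ± 0.50 (SD, n = 4) differed by 1.03 ± 0.27 (SE), a 2.04-fold change, with pairs from 0.75 to 1.36.

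MT1H varied most of the 9 between vehicle arrays, at 11.50, 10.31, 11.74 and 11.22, against 11.78, 11.90, 12.67 and 11.84 in AGA (206461_x_at). Vehicle replicate 2 was the low array and AGA replicate 3 the high one. The difference was 0.86 ± 0.34 (SE, n = 4), and pairs ran from 0.28 in replicate 1 to 1.58 in replicate 2. Without vehicle replicate 2 it was 0.56.

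MT1X was at 12.39, 12.04, 12.31 and 12.16 in vehicle and at 12.60, 12.48, 12.83 and 12.48 in AGA by 208581_x_at, a difference of 0.37 ± 0.14 (SE, n = 4). The probe set of MT1L origin, 204326_x_at, stood at 12.09, 11.84, 12.16 and 12.08 and at 12.17, 12.33, 12.52 and 12.30, a difference of 0.28 ± 0.15. Its groups did not overlap but nearly touched, between vehicle replicate 3 and AGA replicate 1.

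Across the 9 _x_at probe sets, AGA was higher in 4 of 4 same-number pairs for 9, where 9.15% of all probe sets were, and 22.6% of the 332 _x_at probe sets with a mean level above 9. Every AGA value exceeded every vehicle value for 8 of 9, where 1.23% of all probe sets did so. Limma without a replicate block called 0 of 9, where 0.009% of all probe sets were called. In that fit 8 of 9 had an unadjusted p under 0.05, as had 1051 of all 22215 probe sets. With the replicate number as a block limma again called 0. With the block plus a prior variance that follows intensity (block and trend) it called 7 of 9 (0.702% of all probe sets in either direction, 0.387% higher). The 2 not called were MT1H and the 204326_x_at probe set of MT1X. Since this contrast chose the genes, and the 9 can bind each other's transcripts, these counts describe the choice and support nothing further.

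The calls with block and trend depended on the setting more than the differences did. They numbered 1 of 9 where the deposited scale was kept and 8 where arrays were centred on their medians. With values under 16 set to 16 they numbered 0 of 9, as for all probe sets. With log2(value + 16), or with dim probe sets left out, they numbered 7 of 9. Leaving out 1 array at a time gave 4 (without vehicle replicate 3) to 8 (without AGA replicate 1). Over all probe sets the deposited scale gave a median of -0.24 in AGA minus vehicle, and the 9 stood there at 0.18 to 0.80, with a median 0.58 above that shift. Their sign was the same in every alternative run.

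**Figure D3:**
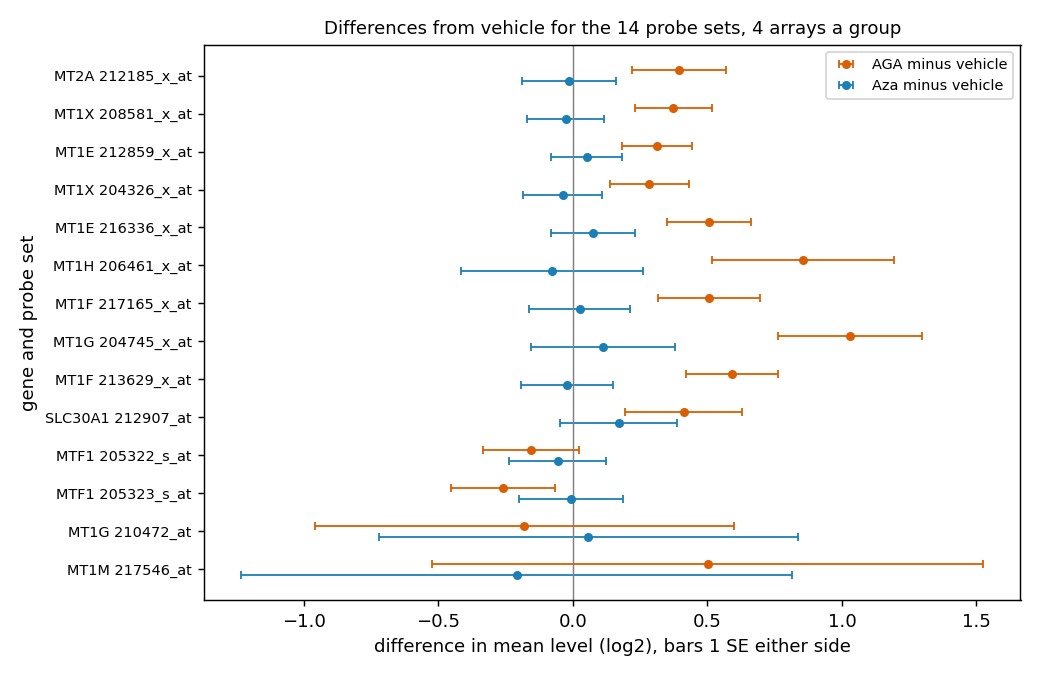
Difference in mean level from vehicle (log2) for all 14 probe sets in AGA (orange) and Aza (blue); bars are 1 standard error either side, n = 4 arrays a group. The 9 _x_at metallothionein probe sets lie between 0.28 and 1.03 in AGA and between -0.08 and 0.11 in Aza, and the plain MT1G and MT1M probe sets have the widest bars.

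The arrays did not contribute alike. AGA replicate 3 was the highest of the 12 arrays for 9 of 9 _x_at probe sets, and the lowest array was vehicle replicate 4 for 5 of them, vehicle replicate 2 for 2, Aza replicate 2 for 1 and Aza replicate 4 for 1. Averaged over the 9, vehicle replicates 1 to 4 stood at 11.40, 11.08, 11.48 and 11.16, AGA at 11.71, 11.76, 12.19 and 11.60 and Aza at 11.36, 11.13, 11.37 and 11.29. The AGA averages lay above all 8 others. The median pair difference between AGA and vehicle was 0.28, 0.55, 0.67 and 0.43 in replicates 1 to 4. Without AGA replicate 3 the median difference of the 9 was 0.35, and leaving out any other array gave up to 0.58.

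**Figure D4:**
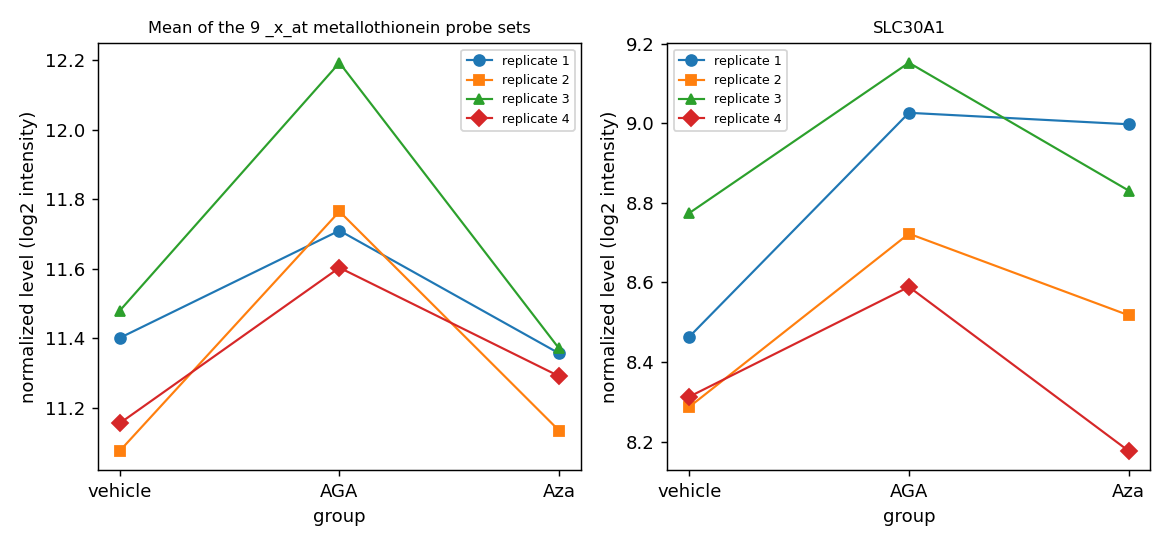
Normalized level (log2 intensity) in vehicle, AGA and Aza with lines joining arrays of the same replicate number, for the mean of the 9 _x_at metallothionein probe sets (left) and SLC30A1 (right). In AGA every replicate is above its vehicle array in both panels; in Aza the metallothionein mean is at 11.13 to 11.37, while SLC30A1 is spread from 8.18 to 9.00.

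The 2 plain metallothionein probe sets were dim and gave no such pattern. MT1G by 210472_at stood at 3.42, 1.36, 0.75 and 3.91 in vehicle, at 1.95, 2.43, 2.83 and 1.51 in AGA and at 1.92, 3.05, 0.94 and 3.76 in Aza. Its deposited intensities of 1.77 to 15.7 were close to the floor, and its groups overlapped fully. AGA differed from vehicle by -0.18 ± 0.78 (SE, n = 4), with 2 pairs higher and 2 lower. MT1M, a type 1 gene that lies next to MT1E in the cluster, stood at 0.39, 0.77, 3.50 and 3.53 in vehicle, at 3.33, 3.12, 3.33 and 0.42 in AGA and at 0.10, 3.12, 0.92 and 3.23 in Aza (217546_at). Every group held arrays at a higher level and arrays near the floor, and AGA differed from vehicle by 0.50 ± 1.02. The dim MT1G and MT1M readings were too scattered to show a difference of the size seen in the _x_at probe sets, so MT1G rests on 204745_x_at alone.

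**Figure D5:**
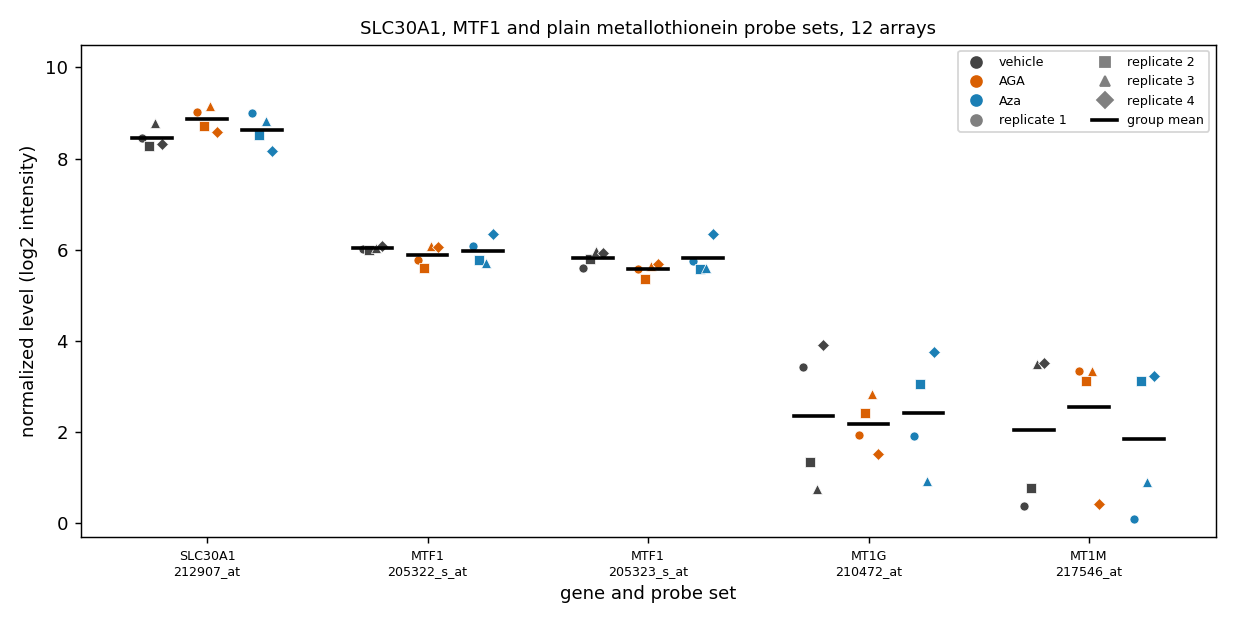
Normalized level (log2 intensity) on each array for SLC30A1, the 2 MTF1 probe sets and the plain probe sets of MT1G and MT1M, by group (colour) and replicate number (marker), with group means as black bars. SLC30A1 is at 8.18 to 9.15 and MTF1 at 5.36 to 6.35, whereas MT1G 210472_at and MT1M scatter between 0.10 and 3.91 in all 3 groups.

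SLC30A1 encodes ZnT1, the transporter that moves zinc out across the plasma membrane, and was read by a plain probe set. It stood at 8.46, 8.29, 8.77 and 8.31 in vehicle, at 9.03, 8.72, 9.15 and 8.59 in AGA and at 9.00, 8.52, 8.83 and 8.18 in Aza. AGA was higher in 4 of 4 same-number pairs, by 0.28 to 0.56, where 9.15% of all probe sets were higher. AGA replicates 2 and 4 lay below vehicle replicate 3, so the groups overlapped. Limma did not call SLC30A1 without the block, with it (adjusted p = 0.449) or with block and trend (adjusted p = 0.0655). AGA differed from vehicle by 0.41 ± 0.22 (SE, n = 4), a 1.33-fold level. On the deposited scale the difference was 0.16, against the median of -0.24 over all probe sets there.

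MTF1, the zinc-sensing factor itself, was not higher in AGA. By 205322_s_at it stood at 6.02, 6.004, 6.03 and 6.08 in vehicle, at 5.77, 5.60, 6.09 and 6.06 in AGA and at 6.08, 5.77, 5.72 and 6.35 in Aza. By 205323_s_at it stood at 5.60, 5.79, 5.98 and 5.93 in vehicle, at 5.58, 5.36, 5.65 and 5.69 in AGA and at 5.77, 5.58, 5.60 and 6.34 in Aza. AGA differed from vehicle by -0.15 ± 0.18 and -0.26 ± 0.19 (SE, n = 4), and the second was lower in 4 of 4 pairs, as were 9.06% of all probe sets. With the deposited scale kept, the differences were -0.42 and -0.54, against the median of -0.24 over all probe sets there.

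Aza against vehicle did not choose the members, though it shares the vehicle arrays with the contrast that did. MT2A was at 12.49, 12.25, 12.40 and 12.06 in Aza replicates 1 to 4. MT1E was at 12.36, 12.12, 12.25 and 12.23 by 212859_x_at and at 11.64, 11.55, 11.61 and 11.49 by 216336_x_at. MT1F was at 9.05, 9.11, 9.20 and 9.01 by 213629_x_at and at 11.12, 11.02, 11.31 and 11.15 by 217165_x_at. All of these lay within or close to the vehicle range. MT1G was at 9.65, 9.73, 10.16 and 10.13 by 204745_x_at, and MT1H at 11.45, 10.54, 11.11 and 11.36. MT1X was at 12.28, 12.08, 12.24 and 12.19 by 208581_x_at and at 12.18, 11.80, 12.05 and 11.99 by 204326_x_at. As in vehicle, MT1H was lowest in replicate 2.

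None of the 14 probe sets passed in Aza against vehicle by limma (adjusted p of 1 for each without the block, where 0.009% of all probe sets passed, and 0.83 to 1 with block and trend, where 0.0045% did), and 0 of 14 had an unadjusted p under 0.05 in either fit. Over all 22215 probe sets 726 had an unadjusted p under 0.05 without the block and 1438 with block and trend. The groups overlapped for 14 of 14, where 1.72% of all probe sets did not overlap. No member went the same way in 4 of 4 pairs, where 14.7% of all probe sets did. The 95% interval of the difference was -0.24 to 0.34 for MT1E by 212859_x_at, -0.40 to 0.37 for MT2A, -0.48 to 0.70 for MT1G by 204745_x_at and -0.82 to 0.67 for MT1H. For SLC30A1 the difference was 0.17 (-0.31 to 0.65), and for MTF1 it was -0.06 (-0.45 to 0.34) and -0.01 (-0.43 to 0.42). The plain MT1G and MT1M probe sets had intervals of -1.66 to 1.78 and -2.47 to 2.05, too wide to limit a change of 2-fold in either direction. All these intervals come from the fit without the block and leave the pairing out. Same-number pairs differed by -0.12 to 0.15 for MT2A and by -0.63 to 0.23 for MT1H.

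Set side by side, the order of the group means was AGA highest for each of the 9 _x_at probe sets, with vehicle and Aza as neighbours that did not differ beyond their spread. SLC30A1 had the order AGA, Aza, vehicle, with overlapping groups. Its Aza level was below AGA in 4 of 4 same-number pairs, by values of -0.03, -0.20, -0.32 and -0.41, and above vehicle in 3 of 4. Aza stood below AGA by 0.26 to 0.93 in the 9 (median -0.43, 0.74-fold), in 4 of 4 pairs for 8 of them, where 8.76% of all probe sets and 16.6% of the _x_at probe sets above level 9 were lower. Every Aza value lay below every AGA value for 7 of 9, where 1.34% of all probe sets did so. Limma called 0 of 9 without the block (0.0135% of all probe sets) and 8 of 9 with block and trend (0.383% lower). This comparison shares the AGA arrays on which the genes were selected, so it too is a description.

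The _x_at probe sets varied together over the 12 arrays. Between any 2 of them Pearson's r ran from 0.70 to 0.97 with a median of 0.89 over 36 pairs of probe sets, and with each replicate number's mean taken off from 0.79 to 0.99 with a median of 0.95. These points share arrays, and the probe sets can bind the same transcripts. SLC30A1 had r = 0.73 with the mean of the 9 (0.71 with replicate means off). The 12 arrays include the AGA arrays on which the genes were selected, so these correlations too are a description. The share of all probe sets with so high an r is not given here. The 2 MTF1 probe sets had r = -0.13 and -0.38, and the plain MT1G and MT1M probe sets -0.09 and 0.25.

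Outside the family and the lists named below, 6580 genes with a brightest probe set above the median level were ranked by correlation with the mean of the 9 after replicate means were taken off. The 5 most alike were EIF2B2, a subunit of a translation initiation factor (r = 0.97), SLC3A2, the heavy chain of amino acid transporters (0.97), TUBB3, a tubulin (0.96), GPI, the glycolytic glucose-6-phosphate isomerase (0.96), and SCPEP1, a serine carboxypeptidase (0.96), over 12 arrays each. Of these, TUBB3 was read by an _x_at probe set. The ranking used the same 12 arrays, so the likeness of these genes is a description. Without removal of the replicate means the 5 values of r were 0.70, 0.70, 0.70, 0.95 and 0.44, so only GPI stayed as close. GPI stood at 8.66, 8.53, 8.76 and 8.58 in vehicle, at 8.89, 8.95, 9.40 and 8.85 in AGA and at 8.62, 8.61, 8.52 and 8.62 in Aza, with AGA replicate 3 the highest array as for the metallothioneins.

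Other genes of metal handling were read from their brightest probe set. Limma without the block called 0 of the members of every list that follows, in either contrast with vehicle. It called 0.009% of all probe sets in each contrast. With block and trend 0.702% were called in AGA and 0.0045% in Aza. With so few calls over all probe sets, a count of 0 in a short list tells little. Over all 11963 genes the median differences were 0.01 in AGA and 0.00 in Aza.

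Of 9 further metallothionein genes and pseudogenes 3 were measured. MT1HL1, a copy on chromosome 1, was at 12.23, 11.84, 11.88 and 12.17 in vehicle, at 12.60, 12.38, 12.60 and 12.37 in AGA and at 12.42, 12.16, 12.12 and 12.002 in Aza, also by an _x_at probe set. It was higher in AGA by 0.45 ± 0.16 (SE, n = 4; limma adjusted p = 0.996 without the block, 0.0084 with block and trend). Without vehicle replicate 3 or AGA replicate 3 it was not called, with an adjusted p of up to 0.0596 by limma. Its _x_at probes can bind transcripts of the chosen genes, so the values of MT1HL1 too are a description. MT3, known from brain, and MT4, known from stratified epithelium, lie at the MT2A end of the chromosome 16 cluster. They were read by plain probe sets and differed in AGA by -0.05 ± 0.38 and 0.02 ± 0.95, at mean levels below the median of all probe sets.

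The other zinc exporters (SLC30A family, 6 of 9 measured) had a median difference of 0.06 in AGA, with 4 of 6 above 0, and of -0.27 in Aza, with 2 of 6 above 0. Limma called 0 of 6 with block and trend in either. These medians rest mostly on dim probe sets, since 4 of the 6 lay below the median level of all probe sets and 3 had at least 1 array at the floor. SLC30A3, which loads zinc into synaptic vesicles, SLC30A4 and SLC30A6 had mean levels of 0.98, 1.78 and 1.24, too near the floor for a difference to be read. SLC30A9, which was bright, differed by -0.13 ± 0.16 in AGA (SE, n = 4).

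The zinc importers (SLC39A family, 8 of 14 measured), which bring zinc into the cytosol, had a median of 0.41 in AGA and 0.21 in Aza, with 5 of 8 and 6 of 8 above 0. Limma called 0 of 8 with block and trend in either. In AGA 4 of the 8 were higher in 4 of 4 pairs and 1 was lower in 4 of 4, where 9.15% and 9.06% of all probe sets were, and 17.9% and 14.8% of those with a mean level above 9. SLC39A1, which encodes the plasma membrane importer ZIP1, differed by 0.47 ± 0.20 in AGA and by 0.40 ± 0.20 in Aza (SE, n = 4). SLC39A8, an importer of zinc and manganese, differed by 1.61 ± 1.12 in AGA, but vehicle replicate 4 was at the floor, and without it the difference was 0.60. SLC39A9 differed by 0.27 ± 0.21 in Aza.

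Copper handling genes (10 of 14 measured) had medians of 0.03 in AGA and 0.02 in Aza, and 0 passed with block and trend. The copper pump ATP7B differed by -0.26 ± 0.22 in AGA and by -0.50 ± 0.22 in Aza, and the copper and zinc enzyme SOD1 by 0.18 ± 0.18 and 0.14 ± 0.18 (SE, n = 4). Iron storage and uptake genes (7 of 11 measured) had medians of 0.13 and -0.05. In AGA, with block and trend, the ferritin light chain FTL alone passed, higher by 0.25 ± 0.13 (limma adjusted p = 0.0363 with block and trend, 1 without). FTL was read by an _x_at probe set. The gene was called with 4 of the 12 arrays left out in turn (AGA replicate 1 and Aza replicates 1, 3 and 4) and with none of the others.

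Glucocorticoid response genes other than metallothioneins (17 of 20 measured) had medians of 0.04 in AGA and 0.00 in Aza. Above 0 were 9 of 17 and 8 of 17. In AGA 4 of the 17 were lower in 4 of 4 pairs and 1 was higher in 4 of 4. Over all probe sets 9.06% were lower and 9.15% higher in 4 of 4. Among those with a mean level above 9 these shares were 14.8% and 17.9%. With block and trend 1 passed in AGA, the transcription factor CEBPD, which fell, at -0.33 ± 0.32 (SE, n = 4; limma adjusted p = 0.0287 with block and trend, 1 without). That SE is of the fit without the block, and with block and trend it was 0.06. Fitted without the block, the difference of CEBPD was -0.08 without AGA replicate 4 and -0.55 without vehicle replicate 4. The call with block and trend was lost without any 1 of the 4 vehicle arrays, AGA replicate 3 or AGA replicate 4. Oxidative and heavy metal stress genes (9 of 12 measured) had medians of 0.44 in AGA and 0.15 in Aza, with 7 of 9 above 0 in both. In AGA 4 of these 9 were higher in 4 of 4 pairs and 0 were lower in 4 of 4, where 9.15% and 9.06% of all probe sets were. TXNRD1, a reductase of the thioredoxin system (0.76 ± 0.19), and SLC7A11, which imports cystine (0.93 ± 0.45), passed in AGA with block and trend (limma adjusted p = 0.00547 and 0.0391; 0.808 and 1 without). TXNRD1 was called with each of the 12 arrays left out, whereas SLC7A11 was called in 3 of 12 (without AGA replicate 1, Aza replicate 1 or Aza replicate 4). Both had already passed in earlier fits of these data. Block and trend called 0.387% of all probe sets higher in AGA. None of these list members passed in Aza with block and trend.

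As a check of the label, 8 of 10 mammary epithelial markers were measured. The basal keratins KRT5 (12.39) and KRT14 (12.37) and ITGB4 (8.80) were bright, while KRT19 was at the floor on every array and EPCAM at 1.47. The summed level of the epithelial list ran from 13.20 to 13.84 (log2) in vehicle, 13.70 to 13.94 in AGA and 13.15 to 13.81 in Aza. The leukocyte list (4 of 6 measured) summed to 4.24 to 5.73, 4.59 to 5.61 and 3.73 to 5.71, from PTPRC at a mean of 1.19 up to ITGAM at 3.19. The fibroblast list (7 of 7) summed to 7.52 to 8.05, 7.06 to 7.78 and 7.88 to 8.17, from LUM at 0.20 up to DCN at 5.01 and COL1A1 at 7.15. The endothelial and adipocyte list (7 of 7) summed to 7.86 to 8.49, 7.47 to 8.24 and 8.02 to 8.64, from CDH5 at 0.76 and VWF at 1.12 up to PLIN1 at 5.05 and KDR at 7.57. The part of these sums in the metallothionein differences was not tested.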

How the data were processed

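Affymetrix arrays were hybridised with RNA from 12 cultures, 1 array each (2.25 µg of RNA per sample, per the labels' protocols). The authors deposited 1 linear intensity for each probe set and array, made with GCOS, the Affymetrix operating software, per the submitters' processing notes, which name neither version nor algorithm. Whether the arrays were scaled is not given in the sources used here, and detection calls were not used here. The number of arrays limits the precision.

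Of 22277 probe sets 62 controls were left out. A floor of 1 was applied before the log2 transform. The log2 medians of the arrays differed by 0.62, so limma's quantile normalization was applied. Tests used limma 3.58.1 (R 4.3.3; lmFit, eBayes, two-sided) over all 12 arrays, with Benjamini-Hochberg adjustment over 22215 probe sets at 0.05. A fit with the replicate number as a block, and one with the block and an intensity trend (eBayes, trend and robust), were alternatives. Deviations from the group means correlated over 0.1 for 12 of 12 same-number pairs among probe sets above the median level (0.37 to 0.78; 0.18 at most for different numbers), and for 6 of 12 over all probe sets. The labels give only the numbers, so the pairing comes from the data.

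The platform annotation gave 1 symbol for 19064 probe sets, several for 1043 and none for 2108. Gene lists used each gene's brightest probe set. Named from each list were genes that passed with or without block and trend, otherwise the 2 lowest p per contrast; genes of like pattern were the 5 with the highest correlation. The members and lists were chosen with earlier results of these data known. Leaving out arrays for genes of the other lists was added after the data were seen. The fitting was tested on simulated data. Promoters and gene positions came from RefSeq (GRCh38.p14).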

Additional observations from a re-analysis of the deposited data

Results flagged for a closer look

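MT1H in AGA replicate 3 (206461_x_at) stood at 12.67, apart from the other 3 AGA arrays at 11.78 to 11.90. MT1M in AGA replicate 4 (217546_at) stood at 0.42, apart from the others at 3.12 to 3.33. In each, the gap to the nearest array divided by the range of the group (0.87 and 0.93) was above the 95% limit of Dixon's test for 4 values. Of 45 groups examined 2 stood out, and chance gives about 5%.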

How the results depend on the processing

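The 9 _x_at metallothionein probe sets were higher in AGA in all 189 values from the alternatives, whereas in Aza 32 of 189 values changed sign around 0 and 0 passed. Their median difference in AGA was 0.34 on the deposited scale, and 0.35 to 0.58 with 1 array left out; in Aza it was 0.12 on median-centred arrays, and -0.04 to 0.07 with 1 array left out. With the replicate block, 2, 0 and 2 probe sets passed in all for AGA against vehicle, Aza against vehicle and Aza against AGA, against 2, 2 and 3 without it. With block and intensity trend the numbers were 156, 1 and 189, and, the replicate 4 arrays being left out as well, 44, 2 and 84. Without the replicate 4 arrays they were 7, 6 and 8 with no block. A floor of 16 and log2(value + 16) both gave 0, 0 and 0 with no block. With block and trend, AGA against vehicle gave 0 with that floor and 153 with log2(value + 16). Leaving out dim probe sets gave 0, 1 and 0 with no block, and 181 for AGA against vehicle with block and trend. In Aza against vehicle 0 passed on median-centred arrays with no block. Leaving out 1 array gave 1 to 5, 0 to 7 and 2 to 7 with no block. The cause of these changes was not tested. Probe sets near the floor, MT1G 210472_at and MT1M, limit what can be said of specific signal; MT1G changed sign in 6 of 20 alternatives in AGA and MT1M in 2 of 20.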
